A study of Mus musculus with 12 samples.

Results

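Ligands and receptors of the platelet-derived growth factor (PDGF) and fibroblast growth factor (FGF) families were followed in the ascending aorta of mice. They are the 4 PDGF ligand genes Pdgfa, Pdgfb, Pdgfc and Pdgfd, the PDGF receptor genes Pdgfra and Pdgfrb, the ligand genes Fgf1 and Fgf2 and the receptor genes Fgfr1 and Fgfr2. These 10 genes were chosen by symbol out of 19938 genes that had a probe set annotated to them alone, and each had 1 such probe set. All mice carried Myh11-CreERT2 and floxed alleles of Tgfbr2, which encodes the type II receptor for TGF-beta. Myh11-CreERT2 is a Cre under the control of a smooth muscle myosin promoter and becomes active with tamoxifen. The deletion is thus aimed at smooth muscle, and in which cells of the wall it took place was not checked here. In the wild-type control group (Myh11-CreERT2.Tgfbr2f/f, normal Fbn1) corn oil was injected, and in the wild-type knockout group (the same genotype) tamoxifen, 1 mg on each of 5 days from an age of 4 weeks. The mutant control and mutant knockout groups (Fbn1C1039G/+.Myh11-CreERT2.Tgfbr2f/f) were treated likewise and carried in addition 1 C1039G allele of Fbn1, the fibrillin-1 gene, which models Marfan syndrome. Aortas were taken at 6 weeks of age, and there were 12 arrays, 3 in each of the 4 groups. Tamoxifen and loss of the receptor cannot be told apart here, since controls had corn oil only. The labels name no animal for an array, so a p-value reflects only how far these samples spread, which may be technical.

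PDGF ligands are secreted dimers that bind receptor tyrosine kinases on mesenchymal cells. PDGF-A and PDGF-C act mainly through the alpha receptor, which marks fibroblast-like cells. PDGF-B and PDGF-D act mainly, but not only, through the beta receptor, which smooth muscle cells and pericytes carry. In vessels PDGF-B comes largely from endothelium and recruits mural cells. FGF1 and FGF2 lack a classical secretion signal, bind heparan sulfate and activate FGF receptors, which signal through the adaptor FRS2 and the ERK cascade. TGF-beta is known to change the response of smooth muscle cells to both families.

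Levels are log2 values of the deposited intensity, and the levels of different genes are not compared, since probe sets differ in response. An error after a level is the SD of 3 arrays, and an error after a difference is the standard error from limma. A gene was called when its two-sided p-value, adjusted by Benjamini and Hochberg over all 14944 genes tested, was under 0.05. Median intensity per array lay between 301 and 334, array correlations lay between 0.991 and 0.997, and the precision is limited by the number of arrays. All 10 smooth muscle markers on the list, Acta2 and Myh11 among them, passed the filter on dim genes, as did all measured fibroblast, endothelial, macrophage and cardiac markers, so passing it does not set smooth muscle apart. The targeted gene showed no detectable decrease: in the wild-type Tgfbr2 stood at 11.95 ± 0.01 without and 11.87 ± 0.08 with tamoxifen (exact two-sided permutation p = 0.2), and at 11.99 ± 0.04 and 12.03 ± 0.05 in the mutant (exact two-sided permutation p = 0.3), where 3 arrays against 3 cannot give a p below 0.1. The position of its probes relative to the floxed exons was not examined, so this level does not check the deletion, and groups are called knockout as labelled. In 4 of the 6 knockout samples 1 description field names Tgfbr3 or Tgfbr4 as the gene knocked out, while the titles, the tissue source and the recorded status of those samples name Tgfbr2, which was followed. Ucp1, a brown fat gene, was highest on mutant control 3 (8.58) and mutant knockout 1 (8.21), and at most 7.30 on the other arrays. Results were therefore also computed without these 2 arrays.

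In the wild-type aorta the knockout arrays had less Pdgfa, Fgf1, Fgf2 and Pdgfrb and more Fgfr2 than controls. In the Fbn1 mutant Pdgfa was again lower and Fgfr2 again higher, Pdgfc and Pdgfd were lower, and Fgf1 was higher. All of these changes were under 1.4-fold, from 1.14-fold for Pdgfrb to 1.37-fold for Fgfr2. In the wild-type 4 of the 10 genes were called lower and 1 higher, where 9.66% of all genes tested were called lower and 9.17% higher (18.8% in either direction). The groups did not overlap for 2 genes higher and 4 lower, as for 16.2% and 19.6% of all genes. In the mutant 3 were called lower and 2 higher, against 5.77% and 7.66% of all genes (13.4% in either direction). Groups without overlap were found for 2 genes higher and 4 lower, against 21.7% and 14.1% of all genes (35.9% in either direction). The median log2 difference of the 10 genes was -0.09 in the wild-type and -0.10 in the mutant, beside -0.01 and 0.03 over all genes. In all, 7 of the 10 genes were called in at least 1 of 5 comparisons, as were 30% of all genes tested, and Pdgfb, Pdgfra and Fgfr1 were called in 0.

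**Figure D1:**
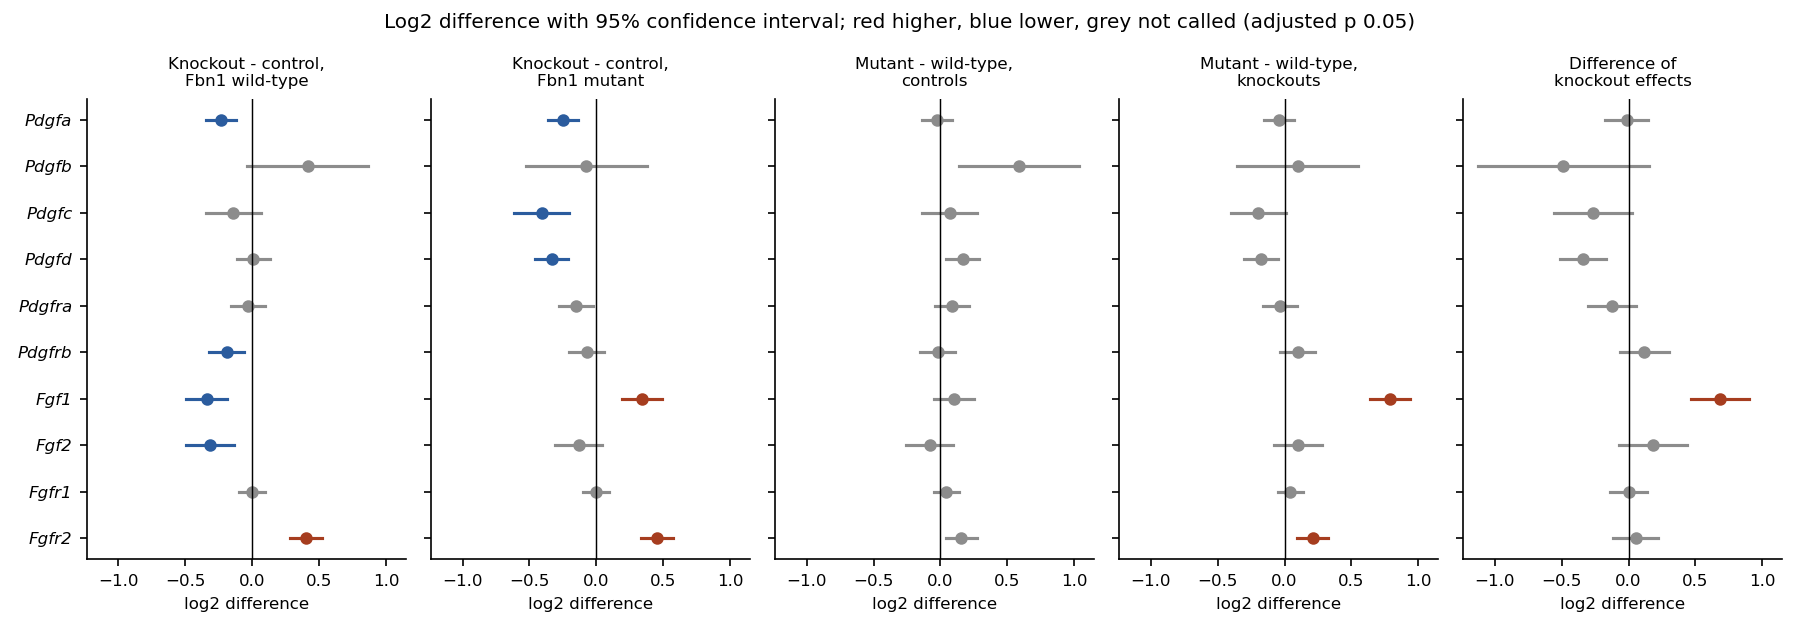
Log2 differences (points) with 95% confidence intervals not adjusted for the number of genes (lines) for the 10 genes in 5 comparisons, with 3 arrays per group. Fgfr2 and Pdgfa lie on the same side of 0 in both knockout comparisons, and Fgf1 lies at -0.34 in the wild-type and at 0.34 in the mutant.

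Pdgfa (chr5:138976014-139000792 in RefSeq's GRCm38.p6, as for all gene positions here) encodes a ligand of the alpha receptor and fell in both genotypes. Its level was 12.24, 12.18 and 12.19 on wild-type controls 1 to 3 and 11.95, 12.05 and 11.90 on wild-type knockouts 1 to 3. On mutant controls it was 12.18, 12.19 and 12.15, and on mutant knockouts 11.999, 11.87 and 11.91. All 6 knockout arrays therefore lay below all 6 control arrays. The decrease was -0.23 ± 0.05 in the wild-type (adjusted p 0.00868) and -0.25 ± 0.05 in the mutant (adjusted p 0.0108), to 85.1% and 84.2% of the control level. The decreases in the 2 genotypes differed by -0.01 ± 0.07 (95% confidence interval -0.18 to 0.15). The Fbn1 genotype made no detectable difference to Pdgfa, at -0.03 ± 0.05 among controls and -0.04 ± 0.05 among knockouts.

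Pdgfc (chr3:81036416-81214040), whose product needs cleavage of its CUB domain before it binds the alpha receptor, fell in the mutant. On mutant controls 1 to 3 its level was 11.01, 10.999 and 11.07, and on mutant knockouts it was 10.61, 10.49 and 10.76. These groups did not overlap, and the decrease was -0.41 ± 0.09 (adjusted p 0.0162), to 75.4% of the control level. On wild-type arrays the level was 11.10, 11.04 and 10.73 in controls and 10.88, 10.86 and 10.70 in knockouts, where the third control lay among the knockouts and the difference was -0.14 ± 0.09 (adjusted p 0.336). With 1 array left out the wild-type difference ran from -0.07 without control 1 to -0.26 without control 3 (adjusted p 0.689 and 0.0485, the highest and lowest over 23 alternatives). The effects in the 2 genotypes differed by -0.27 ± 0.13, with an adjusted p of 0.34, so the genotypes were not shown to differ. The mutant call was lost without mutant knockout 2 (-0.34, adjusted p 0.0636) and without the 2 arrays of highest Ucp1 (-0.38, adjusted p 0.0846, range 0.00257 to 0.0846 over 23 alternatives). In these fits 7.02% and 7.24% of all genes were called in the mutant, against 13.4% in the main fit.

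The bases upstream of Pdgfc are shown because this promoter window was the only one among those found for the 10 genes to hold a CArG box, the element bound by serum response factor, which drives smooth muscle genes. The RefSeq table (GRCm38.p6) matched 6 of the 10 genes, and the windows of Pdgfa, Pdgfra and parts of those of Pdgfd and Fgf2 lay inside the annotated gene. The window of 250 bases at chr3:81036166-81036415 (plus strand, 5′ to 3′, ending just before the start of the gene) has capitals at matches to the SMAD element CAGAC and to the CArG box.
Pdgfc: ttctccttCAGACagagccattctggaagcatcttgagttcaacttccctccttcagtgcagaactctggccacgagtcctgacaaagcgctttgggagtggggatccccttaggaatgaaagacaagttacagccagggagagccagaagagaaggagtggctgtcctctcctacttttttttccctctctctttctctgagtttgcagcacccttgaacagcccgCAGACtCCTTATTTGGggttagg
Counted back from the start, CAGAC began at -242 and at -23, and the CArG box at -17, close to the second of these. On either strand, CAGAC was found in 42.2% of 32851 promoter windows of this length and the CArG box in 1.47%. Neither the AP-1 element TGANTCA (6.75% of windows) nor the GC box GGGCGG (32.7% of windows) was matched in it. A match describes letters and is no evidence of binding.

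Pdgfd (chr9:6168363-6534284), whose product is likewise cleaved before it binds the beta receptor, fell in the mutant. Its level was 12.27, 12.23 and 12.23 on mutant controls and 12.01, 11.89 and 11.82 on mutant knockouts, a decrease of -0.33 ± 0.06 (adjusted p 0.00318) to 79.3% of the control level. On wild-type controls it was 12.14, 12.09 and 12.01 and on wild-type knockouts 12.04, 12.10 and 12.11, so that these groups overlapped and differed by 0.01 ± 0.06 (95% confidence interval -0.12 to 0.13). The test of the difference between the genotypes gave -0.34 ± 0.08 with an adjusted p of 0.0593. That p passed the threshold with the filter on dim genes at the median (0.049), with a trend in the variance model (0.0362) and without mutant knockout 1 (0.0383), and ranged from 0.0362 to 0.141 over 22 alternatives. Among controls the mutant arrays lay above the wild-type arrays by 0.16 ± 0.06, and among knockouts they lay below them by -0.18 ± 0.06, and neither passed (adjusted p 0.103 and 0.0944). The RefSeq window before the Pdgfd start held CAGAC at -5 and, on the opposite strand, at -135, and no CArG box.

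Pdgfb (chr15:79995865-80024614), the ligand gene of the endothelium, varied more between arrays of 1 group than the other members did. Its within-group SD was 0.31, at the 98.9th percentile of the genes tested, whose median was 0.08. On mutant controls its level was 10.16, 10.18 and 9.51 and on mutant knockouts 10.29, 9.98 and 9.36, so that the third array of each group was low and the groups overlapped. On wild-type controls it was 9.27, 9.33 and 9.49, and all 3 wild-type knockouts lay above them, at 9.70, 9.82 and 9.82. The wild-type difference of 0.42 ± 0.21 was not called (adjusted p 0.193), and 35.8% of all genes likewise had no overlap in that comparison. With a spread estimated from the wild-type arrays alone the same difference had an adjusted p of 0.0051, and without the 2 arrays of highest Ucp1 it had 0.046 (range 0.0051 to 0.347 over 23 alternatives). Mutant controls exceeded wild-type controls by 0.59 ± 0.21 (adjusted p 0.112), which became 0.81 without mutant control 3 (adjusted p 0.0321) and stayed 0.59 without mutant knockout 3 (adjusted p 0.0417), and array weights gave 0.66 (adjusted p 0.0468; range 0.01 to 0.332 over 23 alternatives). Of 10 endothelial markers 4 rose with the knockout in each genotype, and the mean log2 level of all 10 was 10.20, 10.29 and 10.54 on mutant controls and 10.76, 10.70 and 10.59 on mutant knockouts. Of the arrays with low Pdgfb, mutant control 3 thus had the highest endothelial level of its group and mutant knockout 3 the lowest. The part of endothelial cells in the Pdgfb values was not tested.

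**Figure D2:**
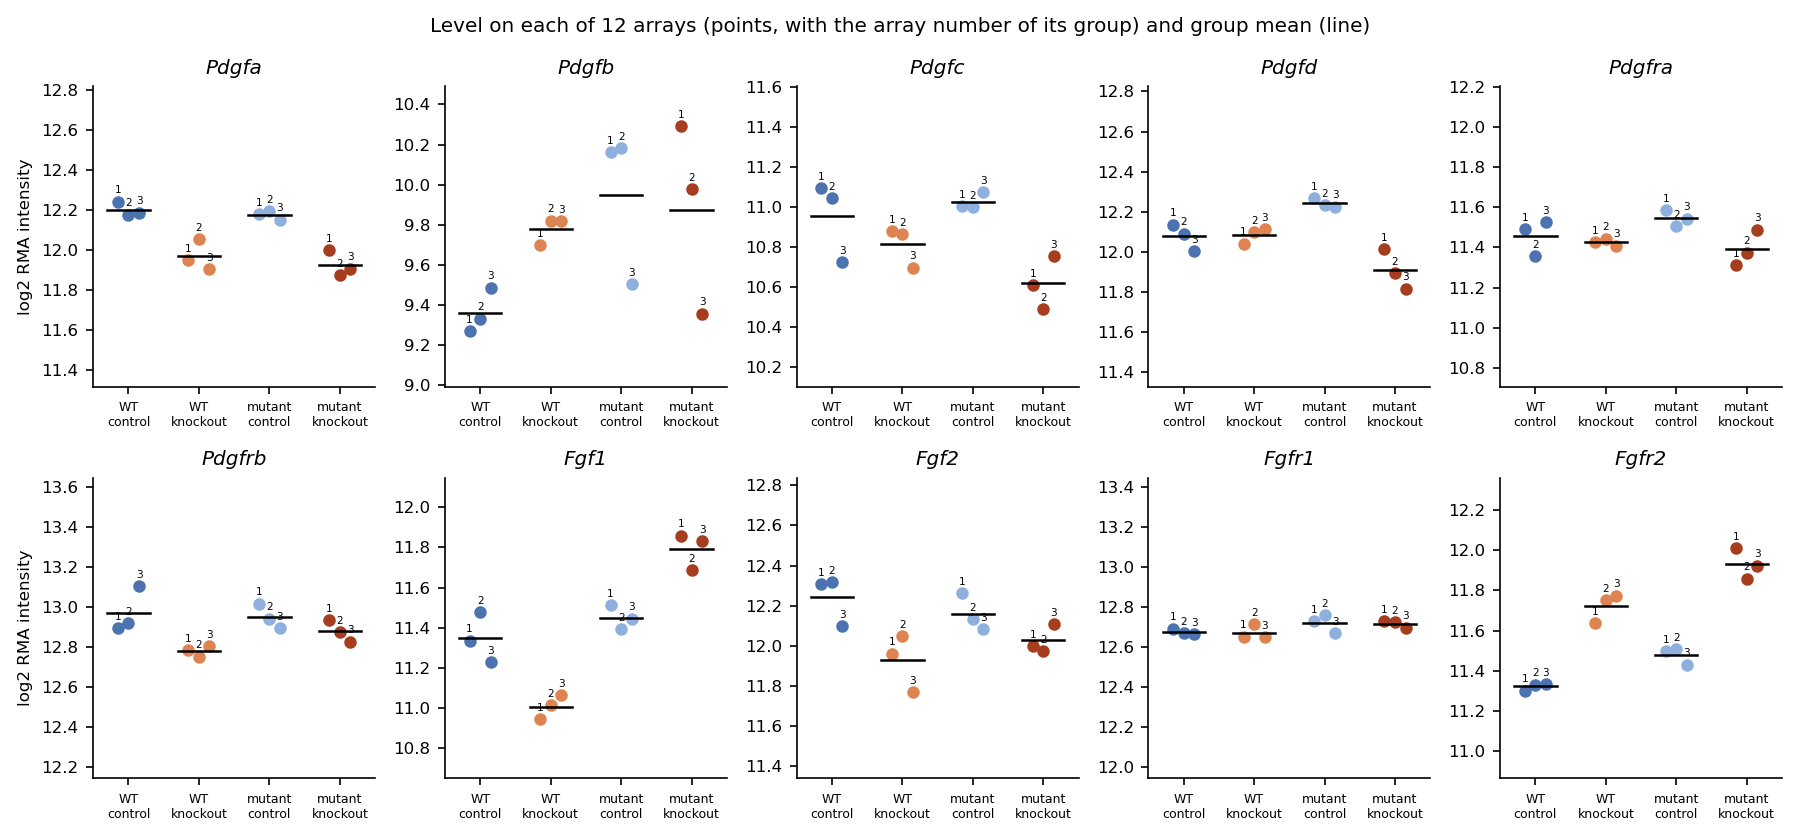
Log2 intensity of each of the 10 genes on each of the 12 arrays (points, numbered within the group) with the group mean (line); every panel spans the same width on the log2 axis. WT is Fbn1 wild-type. Fgfr2 is higher on the knockouts than on the controls of each genotype, Fgf1 is lowest on wild-type knockouts and highest on mutant knockouts, and Pdgfb runs from 9.36 to 10.29 within the mutant knockouts.

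Among the PDGF receptors the changes were small. Pdgfrb (chromosome 18), the receptor of mural cells, had levels of 12.90, 12.92 and 13.10 on wild-type controls and 12.79, 12.75 and 12.81 on wild-type knockouts, which did not overlap. The decrease was -0.19 ± 0.06 with an adjusted p of 0.0444, close to the threshold. The call was lost under 13 of 23 alternatives, among them leaving out wild-type control 2 or 3, wild-type knockout 1, 2 or 3, mutant control 2 or mutant knockout 1 or 2. Over all 23 the difference lay between -0.23 and -0.125 and the adjusted p between 0.0231 and 0.151. The summed intensity of 7 pericyte genes, 6 of them tested, was 28369 to 31326 on wild-type controls and 25587 to 26732 on wild-type knockouts. Within it Cspg4 and Mcam fell by 0.59 ± 0.08 and by 0.33 ± 0.06, Rgs5 rose by 0.47 ± 0.15 (adjusted p 0.0438), the median difference of the 6 tested was 0.004, and the mean log2 level of the 7 genes overlapped between the groups (11.16 to 11.26 and 11.15 to 11.22). The part of pericytes in the Pdgfrb decrease was not tested. In the mutant Pdgfrb was 13.02, 12.94 and 12.90 on controls and 12.93, 12.88 and 12.83 on knockouts, overlapping groups with a difference of -0.07 ± 0.06 (adjusted p 0.431). Among knockouts the 3 mutant arrays lay above the wild-type arrays by 0.10 ± 0.06 (adjusted p 0.403). Pdgfra (chr5:75151322-75198206), the alpha receptor gene and a marker of adventitial fibroblasts, stayed between 11.31 and 11.59 on all 12 arrays. Its differences were -0.03 ± 0.06 in the wild-type (95% confidence interval -0.16 to 0.10) and -0.15 ± 0.06 in the mutant, where the groups did not overlap but the adjusted p was 0.0969. That difference passed with each array centred on its median (-0.19, adjusted p 0.0194), with array weights (-0.17, adjusted p 0.0286) and without mutant knockout 3 (-0.20, adjusted p 0.0486; range 0.0194 to 0.489 over 23 alternatives).

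Fgf1 (chromosome 18), the gene of acidic FGF, fell in the wild-type and rose in the mutant. Its level was 11.34, 11.48 and 11.23 on wild-type controls and 10.94, 11.01 and 11.06 on wild-type knockouts. On mutant controls it was 11.51, 11.39 and 11.45, and on mutant knockouts 11.86, 11.69 and 11.83. The knockouts lay below every control in the wild-type and above every control in the mutant, while the 2 control groups overlapped. The change was -0.34 ± 0.07 in the wild-type (adjusted p 0.00484), a 1.27-fold decrease, and 0.34 ± 0.07 in the mutant (adjusted p 0.00864), a 1.27-fold increase. The difference of these effects was 0.68 ± 0.10 (95% confidence interval 0.47 to 0.90), with an adjusted p of 0.00537, where 1.48% of all genes passed (0.401% higher and 1.08% lower). Of the 10 genes 1 was higher and 0 were lower in this test by limma, where 1 was lower at an unadjusted p under 0.05 (Pdgfd). Of all 14944 genes 15 were called in opposite directions by the 2 knockout comparisons, and Fgf1 was among the 5 that were lower in the wild-type and higher in the mutant.

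In order of level the groups ran from wild-type knockouts (11.01 ± 0.06) over wild-type controls (11.35 ± 0.12) and mutant controls (11.45 ± 0.06) to mutant knockouts (11.79 ± 0.09), and the 2 control groups in the middle did not differ beyond their spread (0.10 ± 0.07, adjusted p 0.397). Among knockouts the mutant exceeded the wild-type by 0.79 ± 0.07, a 1.72-fold difference (adjusted p 0.000117). The increase in the mutant was no longer called with the score of 20 immediate early genes as a covariate (0.23, adjusted p 0.143) or without the 2 arrays of highest Ucp1 (0.31, adjusted p 0.0634; range 0.00221 to 0.143 over 23 alternatives), while the difference of effects passed under all 22 alternatives run (adjusted p 0.00156 to 0.031). These 2 settings also lowered the share of all genes called in the mutant knockout comparison, from 13.4% to 3.68% and to 7.24%. The Fgf1 difference itself went from 0.34 in the main fit to 0.23 with the covariate and 0.31 without the 2 arrays. Why the call was lost was not tested. The immediate early score was 0.80, -0.04 and 0.38 on mutant knockouts against -0.28, -0.27 and -0.10 on mutant controls. Its part in the Fgf1 increase was not tested beyond the fit with it as a covariate.

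Markers of striated muscle moved with the knockout as well. The summed intensity of 8 cardiac genes, all of them tested, lay between 13859 and 16536 on mutant knockouts, against 7729 to 10958 on mutant controls. It was 12557 to 14378 on wild-type knockouts and 9044 to 10396 on wild-type controls. In each genotype 2 of the 8 rose and 1 fell. Tnnt2, the cardiac troponin T, rose by 0.62 ± 0.16 in the wild-type, where Fgf1 fell, and by 1.01 ± 0.16 in the mutant, while Ryr2, a calcium release channel, fell by 0.86 ± 0.12 and by 0.40 ± 0.12. The summed intensity of 8 skeletal muscle genes, of which 4 were too dim to be tested, lay between 3201 and 3398 on mutant knockouts and between 2730 and 3137 on the other arrays. Of the 4 tested, Ckm, the muscle creatine kinase, Tnnt3, a fast troponin, and Acta1, the skeletal actin, rose in the mutant. Acta1 rose by 0.18 ± 0.05 there and by 0.17 ± 0.05 in the wild-type (adjusted p 0.0477), where Fgf1 fell. The part of striated muscle in the Fgf1 values was not tested.

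Fgf2 (chr3:37348477-37410106), the gene of basic FGF, fell in the wild-type. Its level was 12.31, 12.32 and 12.10 on wild-type controls and 11.96, 12.05 and 11.77 on wild-type knockouts, which did not overlap. The decrease was -0.31 ± 0.08 (adjusted p 0.0184), to 80.4% of the control level. The call was lost when wild-type control 1 (adjusted p 0.0635), control 2 (0.073) or knockout 3 (0.0824) was left out, with a range of 0.00489 to 0.0824 over 23 alternatives. In the mutant the level was 12.26, 12.13 and 12.08 on controls and 11.997, 11.97 and 12.11 on knockouts, overlapping groups with a difference of -0.13 ± 0.08 (adjusted p 0.281). The difference between the genotypes was 0.18 ± 0.12 (adjusted p 0.45), so it was not shown that the 2 genotypes differed.

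Fgfr2 (chr7:130162451-130266808), whose splice forms serve epithelial and mesenchymal cells, rose in both genotypes. Its level was 11.30, 11.33 and 11.33 on wild-type controls and 11.64, 11.75 and 11.77 on wild-type knockouts. On mutant controls it was 11.50, 11.51 and 11.43, and on mutant knockouts 12.01, 11.86 and 11.92. The 4 groups did not overlap and stood in the order wild-type control, mutant control, wild-type knockout and mutant knockout. The increase was 0.40 ± 0.05 in the wild-type (1.32-fold, adjusted p 0.000322) and 0.45 ± 0.05 in the mutant (1.37-fold, adjusted p 0.000336), and it was called under all 23 alternatives in each genotype. The 2 increases differed by 0.05 ± 0.08 (95% confidence interval -0.11 to 0.22). The mutant exceeded the wild-type by 0.16 ± 0.05 among controls (adjusted p 0.104) and by 0.21 ± 0.05 among knockouts (adjusted p 0.0392). The call among knockouts was lost under 14 of 23 alternatives, 8 of them the omission of 1 array (wild-type control 1 or 2, wild-type knockout 1, 2 or 3, mutant control 2, or mutant knockout 1 or 3). Over all 23 the difference lay between 0.17 and 0.25 and the adjusted p between 0.0123 and 0.179. Of 10 macrophage markers 10 rose in the wild-type and 6 in the mutant, and of 10 endothelial markers 4 rose in each genotype, and their part in the Fgfr2 increase was not tested.

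The 250 bases before the start of Fgfr2 are shown since this was the member that rose on all knockout arrays. They lie at chr7:130266809-130267058 (GRCm38.p6, minus strand, 5′ to 3′), and matches to the same 4 elements would be in capitals.
Fgfr2: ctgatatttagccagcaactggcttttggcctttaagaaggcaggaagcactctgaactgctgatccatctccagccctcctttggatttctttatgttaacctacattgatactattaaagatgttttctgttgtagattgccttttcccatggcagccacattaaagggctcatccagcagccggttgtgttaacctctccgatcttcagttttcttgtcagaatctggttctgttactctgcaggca
None of the 4 elements was matched, and 44% of the bases were G or C, against a median of 52.4% over all windows. The windows in the table for Pdgfa, which moved the opposite way, held 66.4% and 72.4% G or C and, of the 4 elements, only GC boxes, and lay inside the annotated gene. That these letters are absent from a window says nothing about the factors.

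Fgfr1 (chr8:25518759-25575718), a main FGF receptor gene of mesenchymal cells, varied least of the 10 genes. Its level lay between 12.65 and 12.76 on all 12 arrays, and its within-group SD of 0.03 was at the 1.47th percentile of the genes tested. The knockout differences were -0.003 ± 0.04 in both genotypes, with 95% confidence intervals from -0.10 to 0.09. The Fbn1 genotype gave 0.04 ± 0.04 among controls and among knockouts.

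The Fbn1 mutation was compared within controls and within knockouts. Among controls 0 of the 10 genes were called by limma, where 6.49% of all genes were (3.17% higher and 3.33% lower), although 3 had an unadjusted p under 0.05 (Pdgfb, Pdgfd and Fgfr2, all higher in the mutant). For these 3 the groups did not overlap, as for 11.4% of all genes in that direction (28.1% in either). Alternative settings gave at most 1 call. Among knockouts Fgf1 and Fgfr2 were called higher and 0 genes lower, where 2.8% of all genes were called higher and 3.16% lower (5.96% in either direction). Groups without overlap were found for 3 genes higher and 1 lower, as for 14.4% and 11.9% of all genes (26.3% in either direction). The mutation comparisons share arrays with the knockout comparisons and are not independent of them.

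Genes with the most similar course were found by the root mean square difference from a member over the 12 arrays, each gene taken relative to its own mean. For Fgfr2 these were the mitochondrial carrier Slc25a45 (0.06 log2 units), the inositol phosphatase Inpp5j (0.07) and the replication licensing factor Cdt1 (0.08). For Fgf1 the closest were farther off, namely the vesicle GTPase Rab3a (0.13), the sarcomere protein gene Myoz1 (0.15) and Rcsd1 (0.16). Of these Rab3a changed by -0.17 and 0.27 in the wild-type and mutant knockout comparisons, while Myoz1 changed by 0.02 and 0.36. For Pdgfa they were the corepressor Bcorl1 (0.04), Zfp280b (0.05) and Lrig1 (0.05), a restrainer of receptor tyrosine kinases. For Fgf2 they were the kinase gene Mtor (0.04), the helicase Wrn (0.05) and Bcas3 (0.05). Those of Pdgfd were Yipf5, Kif16b, a motor protein of endosomes, and the matrix protein gene Ccdc80 (0.06 each), those of Pdgfc were Net1 (0.07), Dnajc1 (0.08) and Ica1 (0.08), and those of Pdgfrb were Dab2ip, Nfic (0.04 each) and Rusf1 (0.05). The SD of a member over the arrays was 0.25 for Fgfr2, 0.30 for Fgf1 and 0.14 for Pdgfa. Such neighbours were picked from all genes tested, so closeness alone sets none of them apart.

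**Figure D3:**
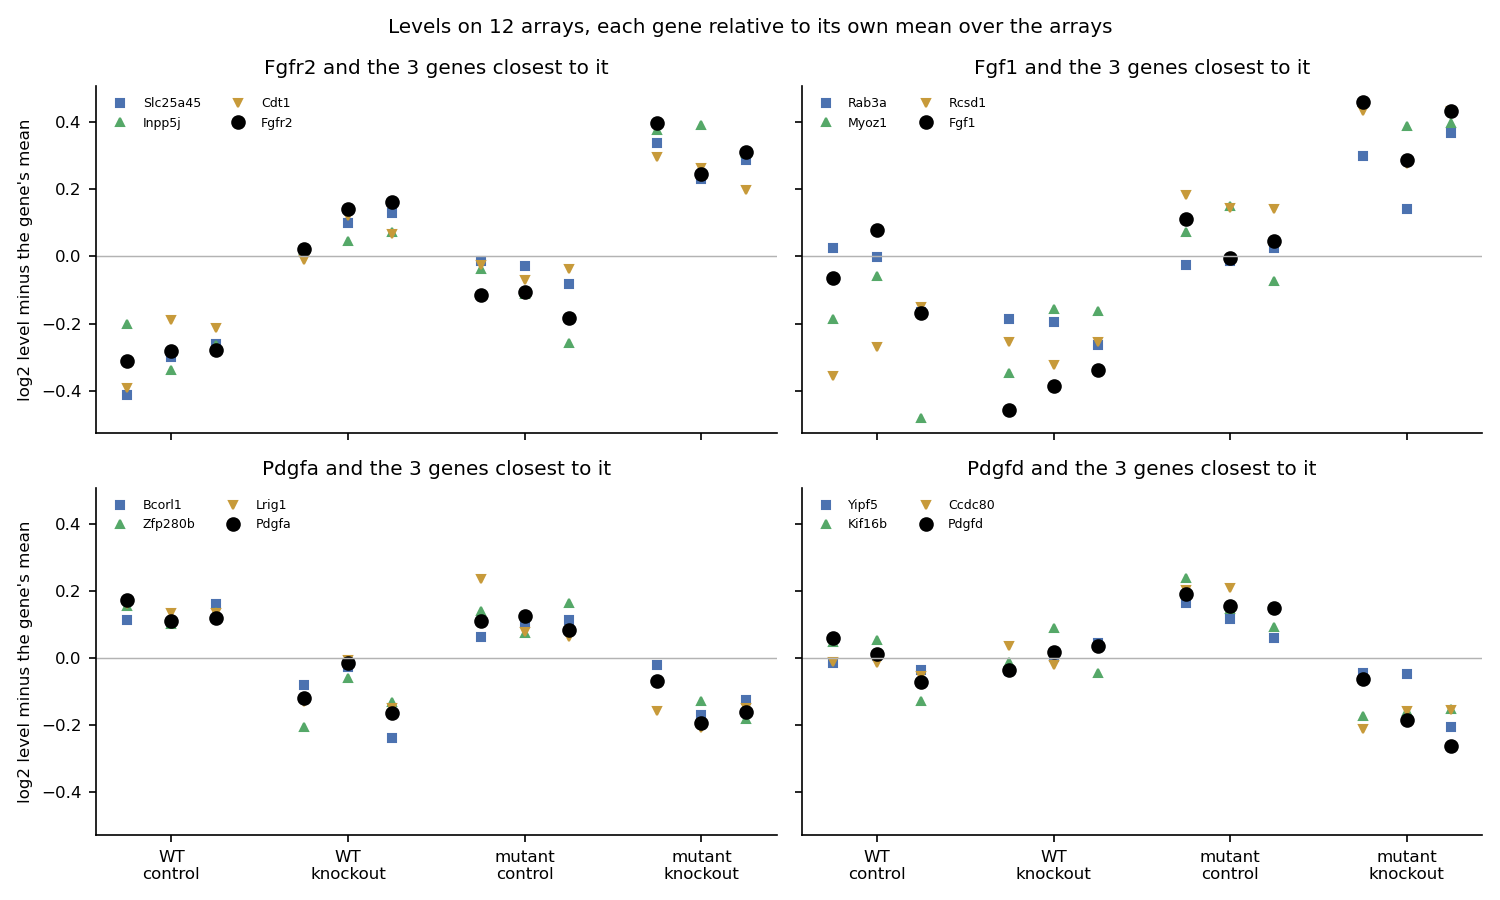
Log2 level relative to the gene's own mean on each of 12 arrays, by group, for Fgfr2, Fgf1, Pdgfa and Pdgfd (black) and the 3 genes closest to each (coloured). By root mean square the neighbours of Fgfr2, Pdgfa and Pdgfd are 0.04 to 0.08 away and those of Fgf1 0.13 to 0.16.

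Other genes of the pathways were read from fixed lists. Over all genes tested 9.17% were called higher and 9.66% lower in the wild-type (median difference -0.01). In the mutant the shares were 7.66% and 5.77% (median difference 0.03). They stand beside the knockout counts of every list here. Of 12 genes that process or bind PDGF ligands, 3 rose and 1 fell in the wild-type, and 0 rose and 2 fell in the mutant (medians 0.17 and -0.04). Cspg4, the NG2 proteoglycan that binds PDGF-A and marks pericytes, fell by 0.59 ± 0.08 and by 0.46 ± 0.08. St14, the protease matriptase, which cleaves PDGF-D, rose by 0.47 ± 0.06 in the wild-type, and Nrp1, a coreceptor, by 0.29 ± 0.06. In the mutant their differences were 0.145 ± 0.06 and 0.12 ± 0.06 (adjusted p 0.122 and 0.201), and the difference between genotypes passed for neither. Pdgfrl, which encodes a secreted protein resembling the PDGF receptor ectodomain, rose by 0.52 ± 0.05 in the wild-type and fell by 0.29 ± 0.05 in the mutant. The difference of these effects was -0.80 ± 0.08 (adjusted p 0.000426), opposite in sign to that of Fgf1. Pdgfrl was also higher in mutant than in wild-type controls, by 0.60 ± 0.05 (adjusted p 0.000126).

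Of 18 other FGF ligand and binding protein genes tested, 1 rose and 2 fell in the wild-type and 2 rose and 1 fell in the mutant (medians 0.02 and 0.15), while 4 of the 22 listed were too dim to be tested. Fgf13, an intracellular FGF homologue that regulates sodium channels, fell by 0.525 ± 0.06 and by 0.30 ± 0.06. Fgf16, a secreted FGF of the heart, rose by 0.62 ± 0.10 in the wild-type, and its difference in the mutant was 0.06 ± 0.10. These effects differed by -0.56 ± 0.14, which did not pass (limma adjusted p 0.0671). Of 14 further receptors and coreceptors, 3 rose and 4 fell in the wild-type and 1 rose and 1 fell in the mutant (medians -0.03 and 0.04). Sdc3, a syndecan that carries heparan sulfate, rose by 0.85 ± 0.08 and by 0.28 ± 0.08, and its effects differed between the genotypes by -0.57 ± 0.12 (adjusted p 0.0369). Hspg2, the heparan sulfate proteoglycan perlecan, fell by 0.29 ± 0.08 and by 0.37 ± 0.08. Fgfrl1, a receptor without a kinase, fell by 0.26 ± 0.06 in the wild-type and was lower in mutant than wild-type controls by -0.43 ± 0.06. Its knockout difference in the mutant was -0.12 ± 0.06, and the effects were not shown to differ (0.15 ± 0.09, limma adjusted p 0.415). The kinase receptors Fgfr3 and Fgfr4, named after their values were seen, were not called, with differences of 0.22 ± 0.07 (adjusted p 0.0515) and 0.04 ± 0.05 in the wild-type and of 0.13 ± 0.07 and 0.13 ± 0.05 in the mutant.

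Of 23 adaptors and effectors 2 rose and 5 fell in the wild-type and 0 rose and 0 fell in the mutant (medians -0.04 and -0.02), where 0 genes higher and 2 lower had an unadjusted p under 0.05 in the mutant by limma. Nras, a RAS protein, rose by 0.31 ± 0.06 in the wild-type, while Sos2, a RAS exchange factor, and Gab1, a docking protein, fell by 0.27 ± 0.06 and by 0.25 ± 0.06. Of 7 listed tyrosine phosphatases 2 rose and 0 fell in the wild-type, and 0 rose and 0 fell in the mutant. Those that rose were Ptpn6, which is largely a gene of blood cells, by 0.49 ± 0.09 and Ptpn1 by 0.21 ± 0.05. The difference of knockout effects was called for 0 of the 23 adaptors and effectors and 0 of the 7 phosphatases. For these genes the genotypes were thus not shown to differ. Of 17 feedback and target genes of the ERK cascade 5 rose and 0 fell in the wild-type and 6 rose and 0 fell in the mutant (medians 0.13 and 0.21). Myc, a growth factor induced transcription factor, rose by 0.97 ± 0.16 and by 0.84 ± 0.16, and Rasa3, a RAS GTPase activating protein, by 0.30 ± 0.08 and by 0.48 ± 0.08. Ccnd1, cyclin D1, rose by 0.67 ± 0.12 and by 0.39 ± 0.12 (adjusted p 0.0479 in the mutant). Etv5, an ETS factor induced by FGF, rose by 0.47 ± 0.12 in the wild-type, and its difference in the mutant was 0.38 ± 0.12 (adjusted p 0.0506). Of the 3 Sprouty genes tested, Spry1, Spry2 and Spry4, which are named after their values were seen, none was called in the knockout comparisons, with limma adjusted p-values from 0.0936 to 0.911. Dusp6, Etv1 and Etv4, likewise named after their values were seen, were not called there either (limma adjusted p 0.0641 to 0.974).

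**Figure D4:**
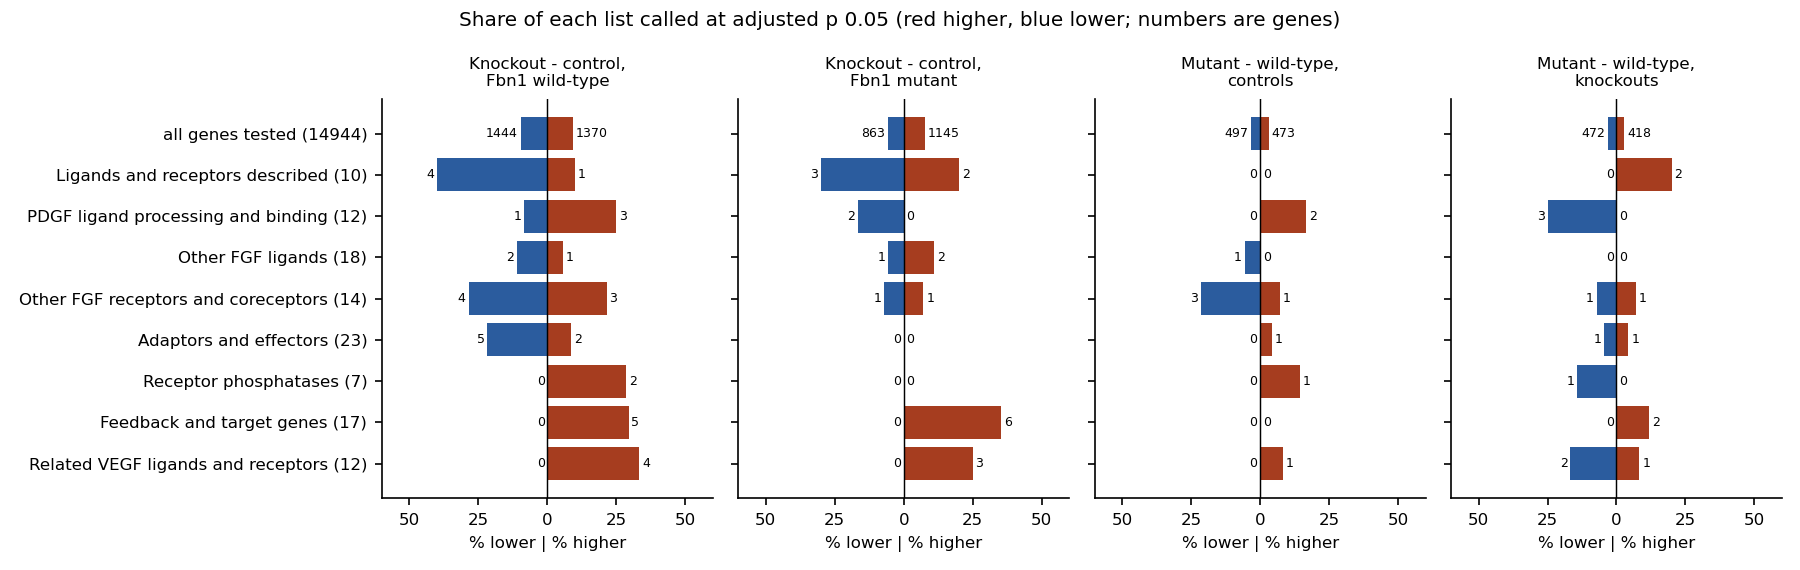
Percentage of the tested genes of each list (number in brackets) called lower (blue, left) and higher (red, right) at an adjusted p under 0.05 in 4 comparisons, with the number of genes at each bar. In the wild-type knockout comparison 4 of the 10 ligands and receptors were lower and 5 of 17 feedback and target genes higher, beside 1444 and 1370 of 14944 genes.

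Levels of cell type markers stood beside these values as follows. The summed intensity of 10 smooth muscle genes, in which bright genes weigh most, was 118730 to 119213 on wild-type controls and 118057 to 119383 on wild-type knockouts, which overlapped. In the mutant it was 115899 to 118632 and 119334 to 121535. Of these genes 1 was called higher and 2 lower in the wild-type, and 2 higher and 0 lower in the mutant. For 10 fibroblast genes, all tested, the sum was 68537 to 76283 and 78192 to 82398 in the wild-type and 68663 to 75358 and 67055 to 73573 in the mutant. Here 4 were called higher and 1 lower in the wild-type, and 2 higher and 2 lower in the mutant. For 10 macrophage genes it rose from 10483 to 12155 on wild-type controls to 21353 to 23761 on wild-type knockouts, with 10 of 10 called, and from 11318 to 14689 to 16443 to 16801 in the mutant, with 6 of 10 called. For 10 endothelial genes it was 15195 to 17336 and 19316 to 24485 in the wild-type and 13486 to 17547 and 17517 to 20713 in the mutant, with 4 called higher and 0 lower in each genotype. In such bulk samples fewer cells of a type and less RNA per cell cannot be told apart, and the part of these cells in the ligand and receptor values was not tested.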

How the data were processed

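RNA of 12 samples of ascending aorta was labelled with biotin and hybridised to 1-colour Affymetrix whole-transcript arrays, per the labels' protocols. The deposited values are RMA intensity on a linear scale, made with RMA and Partek 6.4 per the submitters' processing notes, and log2 was taken here. Of 35556 probe sets, 21789 had 1 gene symbol in the platform annotation, 1621 several and 12146 none; where several served 1 gene, that of highest mean was kept (19938 genes). Genes with a mean under the 25th percentile of the probe sets with 1 symbol (log2 7.31) were not tested, which left 14944. One coefficient per group was fitted with limma 3.58.1 (R 4.3.3, eBayes without trend, 8 residual and 4.54 prior degrees of freedom), and 5 contrasts were tested, adjusted by Benjamini and Hochberg. The procedure was tested on simulated data. Detection calls were not used here, and the number of arrays limits precision.

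The members and lists were chosen with earlier results of these data known. All members are named; of each list up to 4 called genes of smallest p per comparison, and per called member the 3 genes of smallest root mean square difference. Numbers in the titles did not pair the samples. Alternatives covered filter, scaling, probe sets, variance model, weights, block, covariate and arrays in the fit. Protein sequences were not used here.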

Additional observations from a re-analysis of the deposited data

Results flagged for a closer look

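Fgf1 responded differently to the knockout in the 2 Fbn1 genotypes by a test of the difference itself. Its knockout effect in the mutant exceeded that in the wild-type by 0.68 ± 0.10 on the log2 scale (limma adjusted p 0.00537), with 3 of 3 knockout arrays below all controls in the wild-type and 3 of 3 above all controls in the mutant.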

How the results depend on the processing

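Of the 50 differences (10 genes in 5 comparisons), 27 kept their sign and their side of the threshold under all alternatives run. Calls of Pdgfa in both genotypes, of Fgfr2 in both genotypes, of Fgf1 in the wild-type and among knockouts, of Pdgfd in the mutant and of the Fgf1 difference of effects did so. The wild-type knockout comparison called 2 genes higher and 3 lower with only its own groups in the fit or without the 2 arrays of highest Ucp1. It called 1 higher and 3 lower without a filter, with the replicate block and with the immediate early covariate. With 1 array left out it called 1 higher and 2 to 4 lower. In the mutant 1 gene was higher with the immediate early covariate and without the 2 arrays. Pdgfc was no longer called lower without the 2 arrays, and Pdgfra was called lower with median centring and with array weights. With 1 array left out 2 to 4 genes were lower in the mutant. Among controls 1 gene was higher with array weights and without the 2 arrays, and 0 to 1 with 1 array left out. Among knockouts 1 gene was higher without a filter, with each array centred on its median, with the replicate block, with the immediate early covariate, with only its own groups and without the 2 arrays, and 1 to 2 with 1 array left out. The difference of effects called 1 gene lower with the filter at the median and with a variance trend, and 0 to 1 with 1 array left out.

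Signs turned only for differences that were called in neither fit. Pdgfd in the wild-type gave -0.003 with quantile normalization, -0.005 with median centring, -0.011 with array weights, -0.023 with the immediate early covariate and -0.03 to 0.035 with 1 array left out. Array weights gave 0.065 for Pdgfb in the mutant and 0.007 and 0.002 for the differences of effects of Pdgfa and Fgfr1, and quantile normalization gave 0.002 for Fgfr1 in the mutant and 0.014 for its difference of effects. Without the 2 arrays of highest Ucp1, Pdgfrb among controls was 0.007, Pdgfb and Pdgfra among knockouts -0.11 and 0.005, and the Fgfr2 difference of effects -0.011. With 1 array left out the ranges were -0.297 to 0.185 for Pdgfb in the mutant, -0.11 to 0.357 for Pdgfb among knockouts, -0.044 to 0.141 for Pdgfc among controls, -0.059 to 0.045 for Pdgfrb among controls, -0.082 to 0.003 for Pdgfra in the wild-type, -0.083 to 0.005 for Pdgfra among knockouts, -0.078 to 0.001 for Pdgfa among knockouts, -0.051 to 0.028 for the Pdgfa difference of effects, and for Fgfr1 -0.025 to 0.009 in the wild-type, -0.029 to 0.017 in the mutant and -0.026 to 0.021 for the difference of effects. The cause was not tested.

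The title numbers share no stated source, and deviations of same-numbered arrays correlated between -0.21 and 0.24. With these numbers as a replicate block, Pdgfrb in the wild-type (adjusted p 0.0675) and Fgfr2 among knockouts (adjusted p 0.0677) were no longer called, and no other call changed.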

Other observations

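Genes of the related vascular endothelial growth factor system, and ligands and receptors of colony stimulating factor 1 and stem cell factor, were read as a further list of 12 tested genes. In the wild-type 4 rose and 0 fell with the knockout, and in the mutant 3 rose and 0 fell (medians 0.18 and 0.10). Vegfd, a ligand gene of this system, rose by 1.19 ± 0.12 with normal Fbn1 and by 0.47 ± 0.12 with the mutation. These effects differed by -0.72 ± 0.17, which did not pass (limma adjusted p 0.0622). Vegfa, the main angiogenic ligand, rose by 0.37 ± 0.08 and by 0.44 ± 0.08. Csf1r, the receptor kinase of macrophages and a relative of the PDGF receptors, rose by 0.98 ± 0.08 and by 0.32 ± 0.08, and its effects differed between the genotypes by -0.66 ± 0.12 (adjusted p 0.0184). It is also a gene of the macrophage list. Among knockouts Kitl, the stem cell factor gene, was lower in the mutant than in the wild-type by -0.55 ± 0.14 (adjusted p 0.0359).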
